A study of Mus musculus with 6 samples.

Results

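The MHC class I genes described here are 6 heavy chains (H2-K1, H2-D1, H2-Q4, H2-Q6, H2-Q7 and H2-T23), their shared light chain B2m and the class I transactivator Nlrc5. They were taken by gene symbol, and all 8 were found, each on 1 line, among the 21914 gene symbols of the table. All 8 passed the filter on low values (1 FPKM or more in at least 2 libraries), as did 10818 genes in total. RNA was measured in dendritic cells sorted by flow cytometry from peripheral lymph nodes or spleens of C57BL/6 mice. Every mouse, controls included, was germ-free and carried a Rag knock-out, which removes the host's own T and B cells. Mice were left un-injected, or received naive CD4 T cells or regulatory T cells (Treg) 1 week before sampling. Each combination of tissue and transfer is 1 library, 6 in all. The labels do not name the Rag gene, the sorting gate, or the sex and number of mice behind a library. Where 3 values are listed for a tissue, they are in the order un-injected, naive, Treg.

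MHC class I molecules hold short peptides from the cell's own proteins at the surface, where CD8 T cells and natural killer cells read them. A heavy chain is stable there only with its light chain, beta-2 microglobulin, the product of B2m. H2-K1 and H2-D1 encode the polymorphic classical chains, whereas H2-Q6 and H2-Q7 encode Qa-2-type nonclassical chains, H2-Q4 encodes the nonclassical Qb-1 chain, and H2-T23 encodes Qa-1, a ligand of NKG2A receptors. NLRC5 binds no DNA by itself. It joins the RFX, CREB-family and NF-Y factors on the X and Y boxes of class I promoters, the same type of platform that CIITA uses at class II promoters, and Nlrc5 is induced by interferons. Dendritic cells also load taken-up antigens on class I molecules, and migrating, mature dendritic cells carry high levels of them.

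The proximal promoters are shown because they hold the sequence that the transactivator platform and the NF-kB and interferon pathways are known to use. RefSeq promoters of GRCm38.p6 were available for 7 of the 8 genes, with Nlrc5 the one without an entry. A stretch of each that holds its motif matches, except for a further X2 core in H2-Q4 and in B2m, is written from 5′ to 3′ on the gene's own strand. Capitals mark GGGATTCCC (NF-kB type), GAAANNGAA (interferon-stimulated response element type, ISRE), TGACG (X2 box core) and CCAAT (Y box), on either strand, so that ATTGG is an inverse Y box and TTCTCTTTC an inverse ISRE-type match.
H2-K1 (chr17:34000329-34000527, minus strand): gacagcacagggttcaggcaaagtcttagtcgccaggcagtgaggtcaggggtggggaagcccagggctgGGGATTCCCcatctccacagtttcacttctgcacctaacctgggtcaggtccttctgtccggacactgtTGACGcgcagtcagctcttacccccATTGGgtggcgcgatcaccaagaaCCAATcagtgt
H2-D1 (chr17:35262854-35263051, plus strand): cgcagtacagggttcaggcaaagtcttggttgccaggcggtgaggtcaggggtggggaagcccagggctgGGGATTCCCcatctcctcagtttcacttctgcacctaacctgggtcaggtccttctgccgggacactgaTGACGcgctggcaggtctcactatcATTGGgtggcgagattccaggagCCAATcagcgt
H2-Q4 (chr17:35379390-35379572, plus strand): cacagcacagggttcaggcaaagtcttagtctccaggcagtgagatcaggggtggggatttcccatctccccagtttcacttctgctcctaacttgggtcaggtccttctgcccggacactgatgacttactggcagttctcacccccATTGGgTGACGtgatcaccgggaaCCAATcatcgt
H2-Q6 (chr17:35424608-35424805, plus strand): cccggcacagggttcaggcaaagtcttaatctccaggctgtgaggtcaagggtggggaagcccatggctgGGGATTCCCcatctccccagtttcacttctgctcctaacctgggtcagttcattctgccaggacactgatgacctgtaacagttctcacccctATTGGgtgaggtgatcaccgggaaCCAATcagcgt
H2-Q7 (chr17:35438953-35439149, plus strand): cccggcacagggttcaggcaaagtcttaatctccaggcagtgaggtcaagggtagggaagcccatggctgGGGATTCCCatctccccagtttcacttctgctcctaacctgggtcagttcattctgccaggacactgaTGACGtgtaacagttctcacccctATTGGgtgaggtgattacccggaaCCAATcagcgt
H2-T23 (chr17:36032743-36032830, minus strand): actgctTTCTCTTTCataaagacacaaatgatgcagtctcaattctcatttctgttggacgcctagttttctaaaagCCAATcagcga
B2m (chr2:122147542-122147644, plus strand): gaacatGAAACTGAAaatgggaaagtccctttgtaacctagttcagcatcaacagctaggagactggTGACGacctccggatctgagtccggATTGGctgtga

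The H2-K, H2-D and H2-Q promoters shared an arrangement, with the Y box letters in both orientations near the 3′ end. The letters CCAAT or ATTGG were in all 7 promoters, beside 41.1% of 27025 genes with a promoter in the table. The 9-letter NF-kB-type run was in H2-K1, H2-D1, H2-Q6 and H2-Q7, beside 0.414% of genes with a promoter. A gene entered these shares if any of its listed promoters matched, while the 7 were searched in their first listed promoter. H2-Q4 did not have these exact letters in the searched 300 bases. The letters of the X2 core were in H2-K1, H2-D1, H2-Q4, H2-Q7 and B2m (23.05% of genes with a promoter). The upstream copy in H2-Q4 lay between the inverse and the forward Y box. In H2-K1, H2-D1, H2-Q7 and B2m the upstream copy lay before the inverse Y box instead. The further X2 cores of H2-Q4 and B2m were in the opposite orientation and lay after the gene's start. ISRE-type letters were in H2-T23 and B2m (9.76%), and neither TGACGCA (2.42%) nor the gamma-activated site pattern TTCNNNGAA (9.55%) was in any of the 7. A run of 21 bases, ACAGGGTTCAGGCAAAGTCTT, was in the promoters of the 5 genes H2-K1, H2-D1, H2-Q4, H2-Q6 and H2-Q7 and in no other gene's promoter in the table (0.0185%). That run was looked for after the promoters had been read. A match describes letters in a window and is not a measured binding site. Only the stated patterns were searched, so a missing match does not show that an element of that type is absent. This holds for the ISRE type in H2-K1, H2-D1, H2-Q4, H2-Q6 and H2-Q7, where variants of its letters were not searched.

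On mm10, in the GENCODE M21 annotation, the 6 heavy chain genes lie within 2037 kb of chromosome 17. They are H2-K1 (ENSMUSG00000061232, chr17:33996017-34000347, minus strand), H2-D1 (ENSMUSG00000073411, chr17:35262730-35267499, plus), H2-Q4 (ENSMUSG00000035929, chr17:35379617-35385290, plus), H2-Q6 (ENSMUSG00000073409, chr17:35424850-35430055, plus), H2-Q7 (ENSMUSG00000060550, chr17:35439155-35443773, plus) and H2-T23 (ENSMUSG00000067212, chr17:36029773-36032855, minus). B2m (ENSMUSG00000060802) is at chr2:122147686-122153083 on the plus strand and Nlrc5 (ENSMUSG00000074151) at chr8:94434356-94527272 on the plus strand. The heavy chains share stretches of sequence, to an extent that differs between them. Of all 50-base windows of a gene's annotated transcripts, 32.0% in H2-Q6 and 34.9% in H2-Q7 also occurred in transcripts of another gene. The share was 28.8% in H2-T23, 24.3% in H2-Q4, 13.9% in H2-D1 and 6.87% in H2-K1, and it was 0 in B2m and Nlrc5. H2-Q6 and H2-Q7 lie 9.1 kb apart and shared windows with each other (13.9% of those of H2-Q6), so the split of reads between them is uncertain and their sum is given where it matters.

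Values are the deposited expression values, treated as FPKM (fragments scaled to transcript length and library size); they hold no counts, the depth is unknown, and no counting intervals are given. With 1 library per group, a ratio of 2 libraries has no replicate check. The only test is a limma model of log2(FPKM + 1) with transfer and tissue as additive terms over all 6 libraries. Its p-values measure how alike the tissues respond or how alike the transfer states differ, not the spread between mice. The libraries held 9936 to 10383 genes at 1 FPKM or more. Sorted cells carried dendritic cell transcripts in every library, with Itgax, encoding CD11c, lowest (39.7 of up to 385 FPKM) and Zbtb46, a conventional dendritic cell regulator, highest (49.8 FPKM) in un-injected lymph node, and Flt3, a cytokine receptor, lowest in naive lymph node (56.6 of up to 221 FPKM). T cell markers were low, with Cd40lg listed at 0 throughout and 9 markers summing to 9.12 to 53.0 FPKM. Cd4 was the highest of them in each library. The un-injected lymph node library stood apart in 6 markers of migratory, mature dendritic cells, which include Ccr7 and Fscn1 (fascin, an actin bundler). In lymph node they summed to 14022, 2147 and 5381 FPKM, and in spleen to 485, 651 and 379 FPKM. Monocyte markers summed to 73.1, 2235 and 283 FPKM in lymph node and 601, 220 and 287 FPKM in spleen, with all 8 highest in the naive lymph node library. Neutrophil markers summed to 807 FPKM in the un-injected spleen library and to at most 24.01 FPKM in the others. Nearly every nucleated cell type makes class I molecules, and in bulk RNA fewer cells of a type and less RNA per cell cannot be told apart.

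All 8 class I genes were higher in every lymph node library than in every spleen library, and all 8 were highest in dendritic cells of un-injected lymph node. The first pattern was found in 16.9% of all kept genes and the second in 29% of them. In lymph node H2-K1 was at 3667 (un-injected), 2045 (naive) and 1877 (Treg) FPKM, and in spleen at 1203, 1343 and 1045 FPKM. H2-D1, the other classical chain, was at 3114, 2179 and 1974 FPKM in lymph node and 1424, 1271 and 1132 FPKM in spleen. Both classical chains thus had a single high library, un-injected lymph node, with the tissues otherwise separated by a small step: the lowest lymph node value was 1.40 times the highest spleen value for H2-K1 and 1.39 times for H2-D1.

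The light chain and Qa-1 had the same order of tissues. B2m was at 11992, 7822 and 6162 FPKM in lymph node and 4907, 5294 and 3500 FPKM in spleen. It ranked 2nd among all genes of the un-injected lymph node library and 27th in the un-injected spleen library. By the gap between the lowest lymph node and the highest spleen value, its tissues were the closest of the 8 genes. The Treg lymph node library was 1.16 times the naive spleen library. By the ratio of tissue means, H2-T23 was closer (1.86 against 1.90 for B2m). H2-T23 was at 744, 504 and 448 FPKM in lymph node and 319, 284 and 305 FPKM in spleen. The spleen libraries of H2-T23 spanned only 1.12-fold, the narrowest spread of any of the 8 genes in a tissue.

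The Qa-2-region chains were the most tissue-dependent heavy chains. H2-Q4 was at 555, 284 and 318 FPKM in lymph node and 66.7, 143 and 68.6 FPKM in spleen. H2-Q6 was at 543, 203 and 296 FPKM in lymph node and 54.1, 127 and 53.5 FPKM in spleen. H2-Q7 was at 675, 299 and 334 FPKM in lymph node and 132, 152 and 80.4 FPKM in spleen. In spleen, H2-Q4 and H2-Q6 had 1 high library, the naive one, with the other two nearly equal, whereas H2-Q7 was high in both the un-injected and the naive spleen library. Their lymph node means were 4.16, 4.44 and 3.59 times their spleen means, against 2.11 for H2-K1, 1.90 for H2-D1, 1.86 for H2-T23 and 1.90 for B2m.

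Nlrc5, the transactivator, had a pattern nearer to that of H2-Q4 and H2-Q6 than to that of the classical chains. It was at 163, 97.7 and 112 FPKM in lymph node and 15.0, 41.3 and 18.7 FPKM in spleen. Its mean was 124 ± 34.5 FPKM (SD, n = 3) in lymph node and 25.01 ± 14.2 FPKM (SD, n = 3) in spleen, where the 3 libraries of a tissue are different transfer states and not replicates. The ratio of these means, 4.97, was the largest of the 8 genes, and its rank among all genes went from 556th in un-injected lymph node to 4284th in un-injected spleen. In each library the 8 genes ran from B2m at the top, through the classical chains and then H2-T23, to the Qa-2-region chains and Nlrc5. H2-K1 and H2-D1 changed places between libraries: the ratio of H2-K1 to H2-D1 was 1.18, 0.938 and 0.950 in lymph node and 0.845, 1.06 and 0.923 in spleen. Levels of genes that share sequence carry the uncertainty of read assignment.

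**Figure D1:**
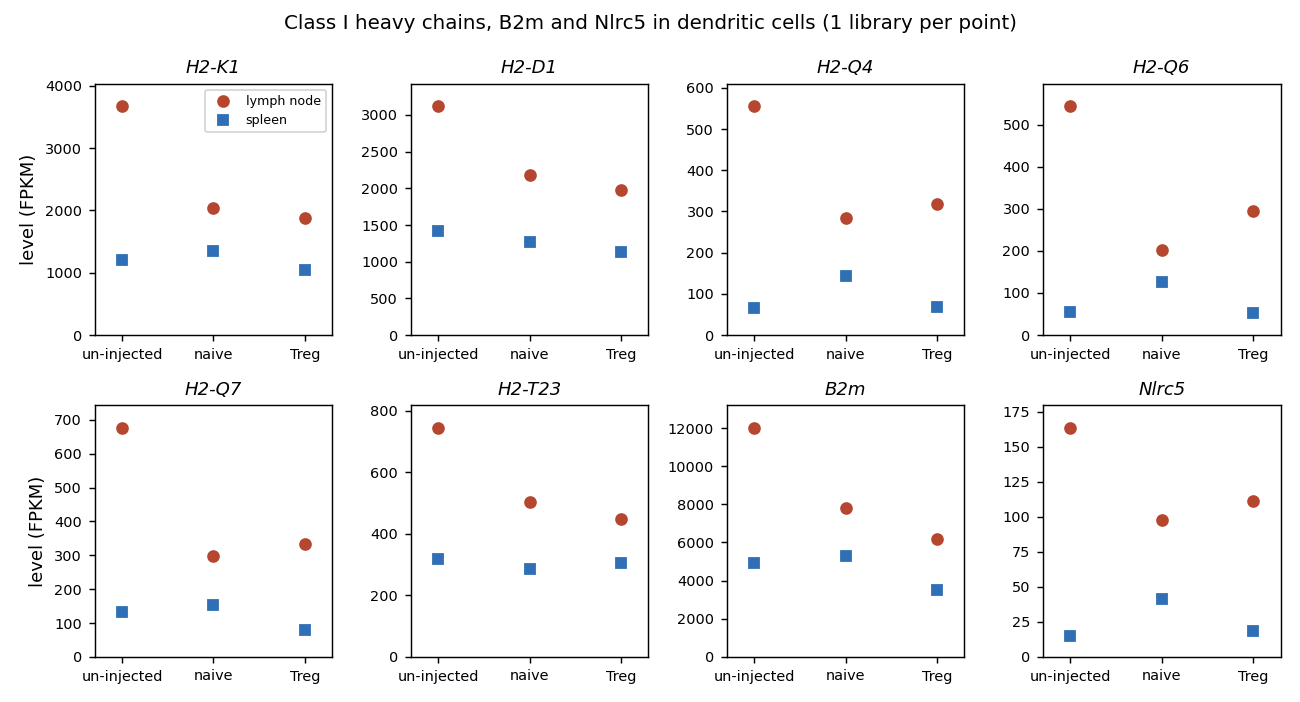
Level (FPKM, linear axis from 0, scaled per gene) of the 8 genes by transfer state, with circles for lymph node and squares for spleen, 1 library per point. Every lymph node point lies above every spleen point of its gene, and in spleen the naive library stands above the other two for H2-Q4, H2-Q6 and Nlrc5 (41.3 FPKM against 15.0 and 18.7 FPKM for Nlrc5).

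In the limma model the difference between lymph node and spleen was positive for all 8 genes, and none passed an adjusted p of 0.05. All 8 had an unadjusted p under 0.05 and were higher in lymph node, as were 13.2% of all genes; 74 genes were called at the adjusted threshold, 0.684% of those tested. The log2 difference was 2.36 ± 0.43 (SE) for Nlrc5, with an adjusted limma p of 0.0696. It was 2.14 ± 0.51 for H2-Q6 (adjusted p = 0.0960), 2.07 ± 0.41 for H2-Q4 (0.0765) and 1.79 ± 0.32 for H2-Q7 (0.0682), in the same limma fit. The classical chains, H2-T23 and B2m had smaller differences, from 0.86 ± 0.22 for H2-T23 (adjusted p = 0.103) to 1.02 ± 0.24 for H2-K1 (0.0955), with limma. Single libraries moved these calls: 7 of the 8 genes, all but H2-T23, were called without the naive lymph node library or without the naive spleen library, and 1 when the un-injected lymph node library was dropped. Over all 10818 genes these fits called 1471, 1449 and 304 genes. With the un-injected lymph node library dropped, the differences ran from 0.69 for H2-T23 to 1.87 for Nlrc5. Dropping the un-injected spleen library gave the same estimates. In the additive model, losing either one takes the un-injected state out of the comparison of tissues. The mature dendritic cell list had the same order of tissues as the class I genes, with all 6 of its genes higher in every lymph node than in every spleen library. Its part in the class I difference was not tested.

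The gap between the tissues differed between the transfer states. In un-injected mice all 8 genes were 2-fold or more higher in lymph node (21% of all genes were), from 2.19-fold for H2-D1 to 9.95-fold for H2-Q6 and 10.5-fold for Nlrc5. In the Treg libraries 4 of 8 were (13.4% of all genes), namely H2-Q4 at 4.61-fold, H2-Q6 at 5.48-fold, H2-Q7 at 4.14-fold and Nlrc5 at 5.84-fold. In the naive T cell libraries only Nlrc5 reached 2-fold, at 2.35-fold (12.2% of all genes did), and H2-Q4 was at 1.99-fold. The members' median log2 ratio of lymph node to spleen was 1.98 without transfer, 1.45 with Treg and 0.80 with naive T cells.

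In lymph node, all 8 genes were lower after either transfer than in the un-injected library, which both ratios share. By sign alone, 50.3% of all genes were lower after naive T cells and 51.0% after Treg. After naive T cells, H2-Q6 went from 543 to 203 FPKM, 2.68-fold lower, and H2-Q7 from 675 to 299 FPKM, 2.25-fold lower. These were the 2 of 8 at 2-fold lower, a step that 16.6% of all genes took, and none of the 8 was among the 16.9% that were 2-fold higher. H2-Q4 was 1.95-fold, H2-K1 1.79-fold, Nlrc5 1.67-fold, B2m 1.53-fold, H2-T23 1.48-fold and H2-D1 1.43-fold lower. The median log2 ratio of the 8 was −0.79, beside 0.00 over all genes. When H2-Q6 and H2-Q7 were summed, 1218 FPKM became 502 FPKM, a log2 ratio of −1.28.

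After Treg, the lymph node values were close to those after naive T cells. H2-Q7 was 2.02-fold lower than in the un-injected library and the only gene of the 8 at 2-fold lower, where 6.91% of all genes were; none was among the 11.4% that were 2-fold higher. The sum of H2-Q6 and H2-Q7 had a log2 ratio of −0.95 there, and neither on that sum nor on library totals was any of the genes 2-fold lower. H2-K1 at 1.95-fold and B2m at 1.95-fold lower lay just short of that step, and Nlrc5 was the least different, at 1.46-fold lower. The median log2 ratio of the 8 was −0.84, beside −0.02 over all genes. Between the naive and the Treg lymph node library none of the 8 differed by 2-fold, whereas 9.3% of all genes were higher and 11.4% lower in the naive library at that step. B2m was 1.27-fold higher and H2-Q6 1.46-fold lower with naive T cells than with Treg. Beside these ratios, the mature dendritic cell marker sum went from 14022 FPKM to 2147 FPKM after naive T cells and 5381 FPKM after Treg, and the monocyte sum from 73.1 FPKM to 2235 and 283 FPKM. Their part in the lower class I values was not tested.

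In spleen, the transactivator and a pair of Qa-2-region chains were higher after naive T cells, and the classical chains were nearly level on the deposited scale. Nlrc5 went from 15.0 to 41.3 FPKM, 2.69-fold higher. H2-Q6 went from 54.1 to 127 FPKM, 2.34-fold higher, and H2-Q4 from 66.7 to 143 FPKM, 2.13-fold higher. These 3 of 8 were at 2-fold higher, beside 4.5% of all genes, and none was among the 6.01% at 2-fold lower. H2-K1 was 1.12-fold and H2-Q7 1.15-fold higher, B2m was 1.08-fold higher, and H2-D1 and H2-T23 were 1.12-fold lower. On library totals the log2 ratio moved from 0.16 to 0.55 for H2-K1 and from −0.16 to 0.23 for H2-D1. The median of all genes moved from −0.04 to 0.31 with that scaling. Because H2-Q6 and H2-Q7 share sequence and only H2-Q6 was high, their sum matters here: it went from 186 to 279 FPKM, a log2 ratio of 0.59.

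After Treg, no spleen value of the 8 genes was 2-fold higher or lower than in the un-injected library, where 4.51% and 5.87% of all genes were. The largest differences were in H2-Q7, 1.64-fold lower, and B2m, 1.40-fold lower, while Nlrc5 was 1.23-fold higher and H2-Q4 and H2-Q6 were within 1.03-fold. Set against the Treg library, the naive spleen library was higher in 7 of the 8 genes, beside 49.0% of all genes. H2-T23 was the exception at 1.07-fold lower. H2-Q6 was 2.36-fold, Nlrc5 2.18-fold and H2-Q4 2.07-fold higher, 3 of 8 at 2-fold beside 4.12% of all genes, and none was among the 3.71% at 2-fold lower. The sum of H2-Q6 and H2-Q7 was 2.08-fold higher in the naive than in the Treg spleen library. Neutrophil markers summed there to 807, 24.01 and 5.31 FPKM and monocyte markers to 601, 220 and 287 FPKM. Erythroid markers summed to 552, 107 and 367 FPKM and markers of type 1 conventional dendritic cells to 749, 372 and 559 FPKM, each lowest in the naive library. The neutrophil and monocyte lists were also lower in the naive than in the un-injected library, the neutrophil list was higher in the naive than in the Treg library, and the part of these lists was not tested.

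**Figure D2:**
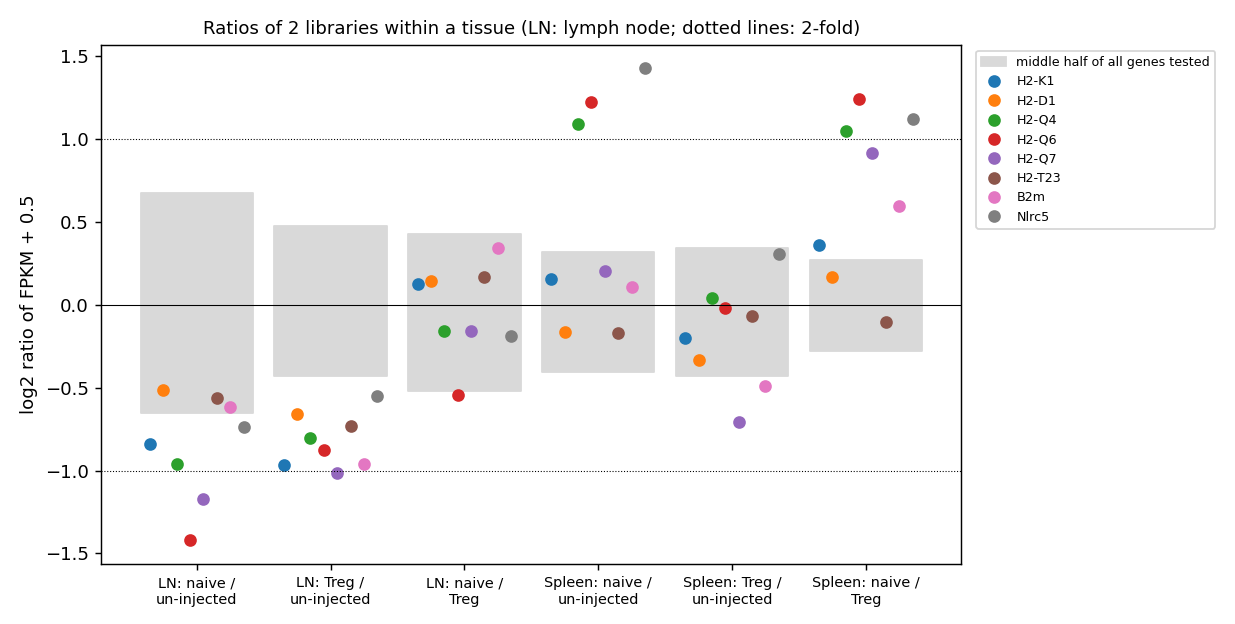
Log2 ratio of 2 libraries of the same tissue (0.5 FPKM added) for the 8 genes, 1 colour per gene, with grey boxes for the middle 50% of all genes and dotted lines at 2-fold. All 8 genes lie below 0 in both lymph node ratios to the un-injected library, and Nlrc5, H2-Q6 and H2-Q4 lie above the upper dotted line in spleen for naive over un-injected (log2 1.43, 1.22 and 1.09).

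The additive model pools the tissues, in which naive transfer had ratios of opposite sign for Nlrc5 and H2-Q4. For Nlrc5 the log2 difference of naive against un-injected was 0.33 ± 0.53 (SE; limma, adjusted p = 0.867), and for H2-Q4 it was 0.06 ± 0.50 (adjusted p = 0.977). In Treg against un-injected, B2m was lower in both tissues, with a log2 difference of −0.72 ± 0.23 (SE; limma, adjusted p = 0.938). That difference was −0.38 on library totals and −0.42 when the un-injected lymph node library was dropped. No gene of the table was called by limma in either transfer contrast or between the transfers (0% each), with 785, 508 and 370 genes at an unadjusted p under 0.05 for naive, Treg and naive against Treg. Of the 8 class I genes, 0, 1 (B2m) and 0 were under 0.05 unadjusted, and B2m was not on library totals, with no filter or with no trend in the prior variance.

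The make-up of the heavy chain level differed by tissue, on the FPKM scale. The 6 heavy chains summed to 9298, 5514 and 5246 FPKM in lymph node and to 3198, 3320 and 2686 FPKM in spleen. H2-K1 and H2-D1 together made up 72.9%, 76.6% and 73.4% of that sum in lymph node and 82.1%, 78.7% and 81.1% in spleen. The Qa-2-region chains made up 19.1%, 14.3% and 18.1% in lymph node and 7.90%, 12.7% and 7.54% in spleen. Their share was therefore closest between the tissues in the naive libraries. B2m was 1.29, 1.42 and 1.17 times the heavy chain sum in lymph node and 1.53, 1.59 and 1.30 times in spleen, lowest in the Treg library of each tissue. Set against the transactivator, H2-Q4 was 3.40, 2.91 and 2.85 times Nlrc5 in lymph node and 4.44, 3.45 and 3.67 times in spleen, whereas H2-K1 was 22.5, 20.9 and 16.8 times Nlrc5 in lymph node and 80.0, 32.5 and 55.9 times in spleen.

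Class I and class II chains had opposite orders of tissue. The class II chains H2-Aa, H2-Ab1 and H2-Eb1 present peptides to CD4 T cells and summed to 10411, 23395 and 20734 FPKM in lymph node and 46679, 36063 and 37900 FPKM in spleen. The class I heavy chains were 89.3% of that sum in un-injected lymph node, 23.6% and 25.3% after naive T cells and Treg, and 6.85%, 9.21% and 7.09% in the spleen libraries. Ciita, which encodes the class II counterpart of NLRC5, was at 15.1, 74.6 and 54.02 FPKM in lymph node and 54.7, 64.6 and 75.6 FPKM in spleen. Its lowest library, un-injected lymph node, was the highest one for Nlrc5.

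**Figure D3:**
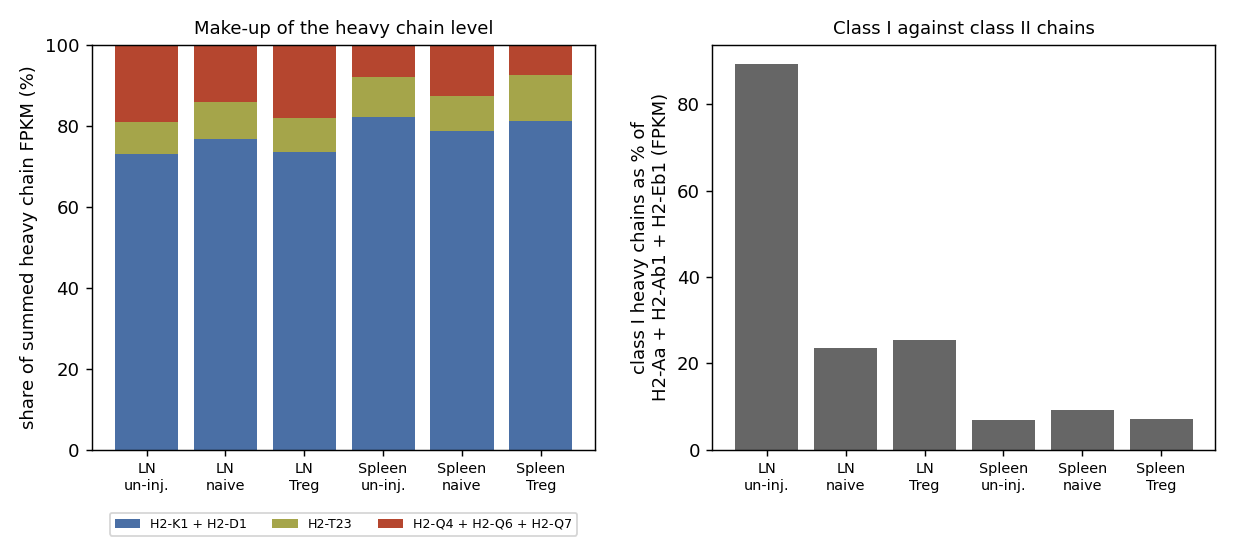
Left, share (%) of the summed heavy chain FPKM held by H2-K1 + H2-D1, H2-T23 and H2-Q4 + H2-Q6 + H2-Q7 in each library; right, heavy chain sum as a percentage of the H2-Aa + H2-Ab1 + H2-Eb1 sum, 1 library per bar. The H2-Q share is 7.54% to 12.7% in spleen and 14.3% to 19.1% in lymph node, and the un-injected lymph node library has the highest class I to class II percentage, 89.3%.

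Peptide-loading and immunoproteasome genes were split in direction in lymph node after naive T cells, and the 5 immunoproteasome and activator genes were all lower after Treg. The counts at 2-fold after naive T cells stand beside 16.9% of all genes higher and 16.6% lower in lymph node, and 4.5% and 6.01% in spleen. Of 8 peptide-loading genes, 2 (the chaperone genes Calr and Pdia3) were 2-fold higher after naive T cells and none lower, with a median log2 ratio of 0.33, while the 8 class I genes were at −0.79. After Treg, 5 of the 8 loading genes were below the un-injected lymph node library, as were 51.0% of all genes, with a median of −0.39 for the list. Tap1, a subunit of the peptide transporter, was at 192, 336 and 137 FPKM in lymph node and 140, 171 and 113 FPKM in spleen. Tapbpl, the tapasin-related editor, was at 125, 76.0 and 59.3 FPKM in lymph node and 18.3, 27.4 and 15.5 FPKM in spleen. Within each tissue this was the order of H2-K1 and B2m. Of 5 immunoproteasome and proteasome activator genes, 1 was 2-fold higher after naive T cells in lymph node: Psmb10, a catalytic subunit, at 223, 448 and 148 FPKM. After Treg all 5 were below the un-injected library in both tissues, beside 51.0% of all genes in lymph node and 52.2% in spleen. Their median log2 ratios were −0.75 in lymph node, where the class I genes were at −0.84, and −0.72 in spleen. Psme2, a proteasome activator subunit, was at 1634, 1272 and 732 FPKM in lymph node and 602, 548 and 324 FPKM in spleen.

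Among 11 promoter and upstream factors, 3 were 2-fold higher and none lower after naive T cells in lymph node. In spleen 1 (Irf1) was 2-fold higher and none lower. By sign alone, 7 of the 11 were below the un-injected library in lymph node (50.3% of all genes were), with a median log2 ratio of −0.51. In spleen 8 of the 11 were above it (46.6% of all genes were), with a median of 0.28. The 3 at 2-fold higher in lymph node were Irf2, Nfkb1, an NF-kB subunit, and Rfxap, an RFX subunit. Rfx5 was at 17.9, 12.3 and 10.9 FPKM in lymph node and 7.05, 13.4 and 11.1 FPKM in spleen. Nfya, the NF-Y subunit that contacts CCAAT, was at 95.7, 55.9 and 85.5 FPKM in lymph node and 33.0, 37.0 and 47.9 FPKM in spleen, higher in every lymph node than in every spleen library. Irf1, an interferon-induced activator of class I promoters, was at 497, 415 and 215 FPKM in lymph node and 48.9, 124 and 52.6 FPKM in spleen, which is the order of Nlrc5 in spleen. Irf2 was at 48.3, 109 and 65.8 FPKM in lymph node and 54.5, 82.2 and 42.8 FPKM in spleen.

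**Figure D4:**
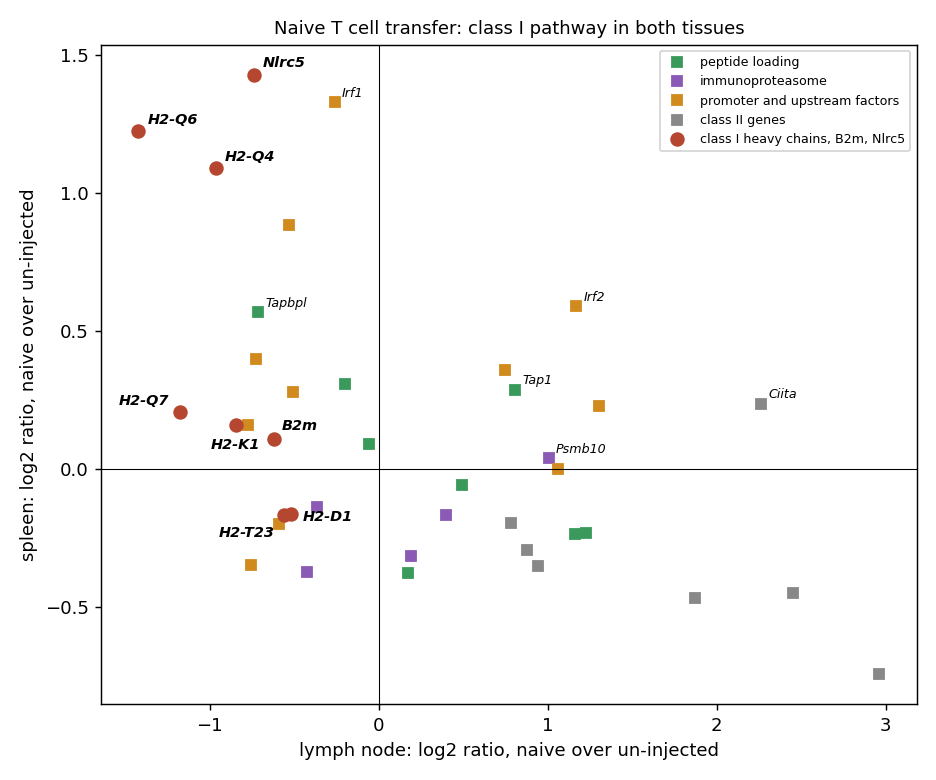
Log2 ratio of the naive to the un-injected library in lymph node (x axis) and spleen (y axis), 1 point per gene, for the 8 class I genes (circles) and 4 lists of related genes (squares). The 8 class I genes lie left of 0 in lymph node (median −0.79), while the class II genes lie right of 0 there (median 1.87).

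Of 16 other class I-like chains listed, 13 were in the table and 8 passed the filter; after naive T cells in lymph node 3 of these (H2-T24, Fcgrt and Hfe) were 2-fold higher and 2 lower, namely H2-M2 and H2-M5, the latter listed at 0 in the naive library. H2-M2, a class I-like gene of the M region, was at 701, 46.2 and 199 FPKM in lymph node and 15.1, 26.3 and 17.9 FPKM in spleen. Its libraries had the order of those of H2-Q4 and Nlrc5 within each tissue, with a wider fold range in lymph node. H2-T22, a ligand of some gamma delta T cells, was at 200, 203 and 94.2 FPKM in lymph node and 67.1, 80.3 and 44.0 FPKM in spleen. H2-T24 was at 0.927, 31.8 and 7.81 FPKM in lymph node and 5.22 to 6.17 FPKM in spleen. H2-M3, which presents N-formylated peptides, was at 64.6 to 94.1 FPKM in all 6 libraries. H2-T22 and H2-T24 share the table's locus with H2-T23, so how their reads were divided is uncertain.

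Likeness of pattern was measured as the root mean square difference of log2 values centred over the 6 libraries, among 7556 genes with a mean of 5 FPKM or more, with no test. The nearest gene to Nlrc5 was H2-Q4 (0.192), followed by Csf2rb2 (0.233), a beta chain of the interleukin 3 receptor, and H2-Q6 (0.245). H2-Q4 and H2-Q6 were nearest to each other (0.156), partly shared reads permitting; Nlrc5 was also among the nearest 3 genes of H2-Q4. H2-Q7 lay nearest to Lrrc8c (0.0918), a volume-regulated anion channel subunit, and Icam1 (0.116), an adhesion ligand. H2-D1 had the closest neighbour of all, the thioesterase gene Acot9 (0.0506), then Parp3 (0.0687), an ADP-ribosyltransferase, and Renbp (0.0878). H2-T23 was nearest to Itpk1 (0.0898), Renbp (0.0906) and Rhog (0.0915). B2m was nearest to 3830406C13Rik (0.108), Parp3 (0.123) and H2-K1 (0.132), and H2-K1 to Zfp984 (0.110), Clic4 (0.115) and Bhlhe40 (0.121), a transcriptional repressor. No class I gene was among the nearest 3 of H2-K1, H2-D1, H2-Q7 or H2-T23. H2-D1 and H2-T23 were each other's 4th nearest gene (0.0937), and B2m was 6th for H2-K1 (0.132). For H2-Q7 the closest of the other class I genes was H2-Q4, at rank 37.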

How the data were processed

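Sorted dendritic cells gave 6 RNA libraries, 1 per group, so p-values reflect no spread between mice. The authors deposited 1 table of expression values per gene and library; the unit is not named in its header, and from the values it was treated as FPKM. Per the submitters' processing notes, RSEM and edgeR 3.16.5 were tools and mm10 and GRCm38.p4 builds, with roles not stated. Aligner and read length: not given in the sources used here, nor is the depth. The authors' deposited tables of library pairs hold a log2 fold change recorded as a score, since extreme values stand in for zeros; for the 8 genes all 48 deposited values equalled log2 of the FPKM ratio within 1.15e-05, and none was marked significant. Values of symbols on several lines were summed.

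Genes at 1 FPKM or more in at least 2 libraries were kept. Ratios of 2 libraries used log2 with 0.5 FPKM added (folds are on this scale). The limma model (limma 3.58.1, R 4.3.3, trend, 2 residual degrees of freedom) used log2(FPKM + 1). Benjamini-Hochberg adjustment was over all 10818 genes, with a threshold of 0.05. The code was tried on simulated data in which the spread was capped at a low level and only large tissue differences were added. That trial does not show how the model performs at the spread of these data. Tables were made with Python 3.11.15. Named genes were the 8 class I genes, the listed pathway and marker genes, and the 3 nearest genes of each. One gene of the listed promoter and upstream factors is not reported here and is left out of the counts of that list. The members and lists were chosen with earlier results of these data known. Alternatives were other pseudocounts (0.1 and 5), filters, scalings and model terms, and leaving out each library. Identity of proteins was not used here; sharing of 50-base windows took its place, a choice made after seeing the data, as were the sum of H2-Q6 and H2-Q7 and the longest shared promoter run.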

Additional observations from a re-analysis of the deposited data

Results flagged for a closer look

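The ratio to the un-injected library had opposite signs in lymph node and spleen for several of the 8 genes, each from 1 library per group, so the difference between the tissues was not tested. For naive T cells against un-injected, the log2 ratio in lymph node minus that in spleen was −1.001 for H2-K1, −2.05 for H2-Q4, −2.64 for H2-Q6, −1.38 for H2-Q7, −0.73 for B2m and −2.17 for Nlrc5. These are 6 of 8 genes, where 52.5% of all kept genes had opposite signs. For Treg against un-injected it was −0.84 for H2-Q4 and −0.85 for Nlrc5, 2 of 8 beside 45.9% of all genes. For naive against Treg it was −1.21 for H2-Q4, −1.78 for H2-Q6, −1.08 for H2-Q7, 0.27 for H2-T23 and −1.31 for Nlrc5, 5 of 8 beside 42.8% of all genes. For H2-K1 and B2m after naive T cells, H2-Q4 after Treg, and H2-Q4, H2-Q7, H2-T23 and Nlrc5 in naive against Treg, at least 1 of the paired ratios was under 0.2 in size on the log2 scale.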

How the results depend on the processing

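All 8 lymph node against spleen differences were positive under every alternative run. The number of genes called by limma for that contrast, 74, was 38 and 0 with a pseudocount of 0.1 and 5, 0 with no filter, 18 at a mean of 5 FPKM or more, 23 on library totals, 311 with 1 term only, 2 with no trend and 0 to 1471 leaving out 1 library. Among the 8 genes it was 2 with the tissue term only and 0 to 7 leaving out 1 library. With no trend, 2 genes were called for Treg and 2 for naive against Treg; leaving out 1 library gave 0 to 382 genes for naive, 0 to 17 for Treg and 0 to 104 for naive against Treg. Leaving out 1 library, the naive against un-injected difference ran from −0.75 to 0.87 for H2-Q4 (−0.66 without the un-injected spleen library) and from −0.52 to 1.19 for Nlrc5 (−0.41 without that library). The ratios of 2 libraries were −0.96 in lymph node and 1.09 in spleen for H2-Q4, and −0.74 and 1.43 for Nlrc5. Without 1 of the naive or un-injected libraries, the additive fit rests more on the tissue that keeps both. With H2-Q6 and H2-Q7 summed, 1 was 2-fold lower after naive T cells and 0 after Treg in lymph node. On library totals the median of all genes moved by up to 0.35 (log2); 0 of the 8 were then 2-fold lower after Treg in lymph node, and 3 and 7 were 2-fold higher in lymph node than in spleen after naive T cells and Treg. At a mean of 5 FPKM or more, 2.91% of genes were 2-fold higher in Treg than in un-injected spleen, and 2.47% higher and 1.83% lower in naive than in Treg spleen. No paired analysis was possible because each group has 1 library, so no replicate block could be added; the additive model already compares the tissues within each transfer state, and the fit with 1 term only does not. Depth is unknown.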

Other observations

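The receptors for interferons were measured in the same libraries. Ifngr1, the ligand-binding chain of the interferon gamma receptor, was at 27.4 (un-injected), 112 (naive) and 102 (Treg) FPKM in lymph node and 360, 304 and 424 FPKM in spleen, the reverse order of tissues from the 8 class I genes. Ifngr2, its second chain, was at 40.8 to 55.1 FPKM in all 6 libraries. Ifnar1 and Ifnar2, the chains of the receptor for type I interferons, were at 26.2 and 43.3 FPKM in un-injected lymph node, their lowest library, and at up to 49.2 and 86.2 FPKM in the naive one.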
